A study of Homo sapiens with 2 samples.

Results

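The genes of the catalytic head of mitochondrial ATP synthase were examined for NRF-1 occupancy at their promoters. The 6 genes were taken by name: ATP5F1A and ATP5F1B, which encode the alpha and beta subunits of the catalytic ring, ATP5F1C, ATP5F1D and ATP5F1E, which encode the gamma, delta and epsilon subunits of the central stalk, and ATP5IF1, which encodes the inhibitor that binds the head. They are 6 of 19794 protein-coding genes with an annotated start. The peaks were called in U251, a long-established line of human glioblastoma cells. The cells received either a control siRNA, named siControl, or one that targets AATF, a transcriptional cofactor, named siAATF. Both conditions were immunoprecipitated with the same NRF-1 antibody, and no further allele or agent was named for either. The experiment was done in duplicate per its protocol, but each condition is labelled as replicate 1 and has 1 peak list. The design text of the series gives the line as U138, whereas both sample labels give U251, which is used here. No spread between replicates can be had, so every difference between the lists is given as a description without a test, and AATF depletion cannot be told apart from any other difference between the 2 libraries.

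ATP synthase uses the proton gradient across the inner mitochondrial membrane to make ATP. Protons flowing through the membrane part turn the central stalk, and the turning stalk drives the alpha and beta subunits of the head through the states in which ADP and phosphate are bound and ATP is released. When the gradient collapses the enzyme can run backwards and consume ATP, which the inhibitor protein limits. The subunits of the head and central stalk and the inhibitor are encoded in the nucleus. NRF-1 (nuclear respiratory factor 1) recognizes GC-rich palindromes at the promoters of many nuclear genes whose products act in mitochondria.

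In the GENCODE annotation on GRCh37 (hg19), the 6 genes lie on 6 chromosomes. ATP5F1A (ENSG00000152234) is at chr18:43660214-43684300 on the minus strand with 12 exons, and ATP5F1B (ENSG00000110955) is at chr12:57031959-57039768 on the minus strand with 10. ATP5F1C (ENSG00000165629) is at chr10:7830110-7849778 on the plus strand with 10 exons. ATP5F1D (ENSG00000099624) is at chr19:1241745-1244824 on the plus strand with 4 exons, and ATP5F1E (ENSG00000124172) is at chr20:57600530-57607400 on the minus strand with 3. ATP5IF1 (ENSG00000130770) is at chr1:28562620-28573417 on the plus strand with 3 exons.

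Promoters were defined as the 1 kb upstream and the 1 kb downstream of each annotated start of a protein-coding transcript. A promoter peak was present for 5 of the 6 head genes in siControl (83.3%, exact 95% Clopper-Pearson interval 35.9 to 99.6) and for the same 5 in siAATF. The background over the 19794 coding genes was 61.1% in siControl and 60.7% in siAATF. The gene without one was ATP5IF1, in both lists. For each of the other 5 genes, the strongest siControl promoter peak overlapped a siAATF peak, as it did for 97.1% of coding genes with a siControl promoter peak. The interval treats the 6 genes as independent draws, although they were taken by name, and covers counting error only.

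The sequences below are from the GRCh37 assembly (hg19), in the direction of each gene and ending just before its first nearby protein-coding start. The first pair is shown because it holds the NRF-1 core, a palindrome of 10 bases made of the half-site GCGCA followed by its reverse complement. Capitals mark the core, which is exact in ATP5F1C (chr10:7829990-7830139, plus strand) and has 1 mismatch in ATP5F1D (chr19:1241595-1241744, plus strand). That mismatch is A5T, with the core's base first and positions counted from 1 at its 5′ end.

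ATP5F1C: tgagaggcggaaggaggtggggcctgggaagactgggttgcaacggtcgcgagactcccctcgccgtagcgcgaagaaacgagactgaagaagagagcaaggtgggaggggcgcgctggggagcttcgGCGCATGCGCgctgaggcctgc
ATP5F1D: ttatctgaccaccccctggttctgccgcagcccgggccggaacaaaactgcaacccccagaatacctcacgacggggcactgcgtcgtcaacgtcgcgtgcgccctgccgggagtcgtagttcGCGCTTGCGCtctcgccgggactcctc

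The next 3 are shown because none of them held the core with up to 2 mismatches, although ATP5F1B and ATP5F1E had a promoter peak there and ATP5IF1 did not. Capitals mark CCAAT, the CCAAT box, read on either strand. They lie at chr12:57039769-57039918 (minus strand) for ATP5F1B, chr20:57607401-57607550 (minus strand) for ATP5F1E and chr1:28562470-28562619 (plus strand) for ATP5IF1.

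ATP5F1B: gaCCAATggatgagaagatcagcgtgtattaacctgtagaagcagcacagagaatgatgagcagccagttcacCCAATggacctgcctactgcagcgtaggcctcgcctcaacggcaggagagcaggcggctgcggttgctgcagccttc
ATP5F1E: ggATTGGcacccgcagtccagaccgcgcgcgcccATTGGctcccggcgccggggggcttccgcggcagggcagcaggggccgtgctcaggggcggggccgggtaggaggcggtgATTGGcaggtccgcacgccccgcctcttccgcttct
ATP5IF1: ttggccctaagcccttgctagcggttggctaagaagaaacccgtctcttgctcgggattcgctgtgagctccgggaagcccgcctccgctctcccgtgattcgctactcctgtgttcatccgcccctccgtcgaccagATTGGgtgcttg

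ATP5F1A is shown by 30 bases only (chr18:43678293-43678322, minus strand), from 60 to 31 bases before its canonical start, since a further coding transcript begins just upstream. Capitals mark the ETS word CCGGAAG, read on the reverse strand, the only one of the 6 windows of 250 bases before to 50 bases after the canonical start to hold it.

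ATP5F1A: cgaggggcagtaCTTCCGGgtcaggtgggc

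In those windows the exact NRF-1 core was found for ATP5F1C alone among the head genes, and in 1.71% of the windows of 19515 coding genes. With up to 1 mismatch it was found for ATP5F1C and ATP5F1D, and in 10.6% of all windows. The core lay 22 to 13 bases before the canonical start of ATP5F1C and 32 to 23 bases before that of ATP5F1D. The ETS word CCGGAAG, which is bound by GABP (also called NRF-2) among other factors, was in 14.1% of all windows. The CCAAT box was in the windows of ATP5F1B, ATP5F1E and ATP5IF1 and in 36.0% of all windows. The Sp1 word GGGCGG was in every head window except that of ATP5F1B and in 61.8% of all, and the YY1 word CCATNTT was in those of ATP5F1A, ATP5F1B and ATP5F1C and in 14.8% of all. Words were sought on both strands, they may overlap one another, and a match is a description of the letters and not of a bound site.

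Each promoter peak was described by its fold enrichment over the local background of its own library, by its −log10 q, and by its percentile rank among all peaks called in the same condition, where 0 is the weakest and 100 the strongest. Fold enrichment is relative to each library, so only ranks were set side by side between lists. The lists held 18014 siControl and 18454 siAATF peaks, with a median fold enrichment of 5.82 and 5.59, and depth was unknown because the lists carry no read numbers.

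In the catalytic ring, the alpha and beta genes had promoter peaks of middle to low rank and moved in opposite directions. ATP5F1A had a siControl peak at chr18:43677813-43678346 of fold enrichment 6.81 and −log10 q 8.74, at rank 64.2 by fold enrichment. Its siAATF peak, at chr18:43677832-43678356, had a fold enrichment of 5.21 and a −log10 q of 4.62, at rank 43.8. The change of −20.4 points was the largest fall among the 5 head genes with a peak, and by −log10 q the rank went from 47.0 to 30.9, a change of −16.0 points. ATP5F1B, whose beta subunit carries the catalytic sites, had a siControl peak of fold enrichment 4.46 and −log10 q 3.32, at rank 27.1. In siAATF the values were 4.67 and 3.93, at rank 33.5, a change of 6.38 points and the only rise by fold enrichment among the head genes. The called regions were 944 bp wide in siControl and 389 bp in siAATF, so the values do not describe the same stretch. Its −log10 q was below 5 in both lists.

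The ATP5F1A peaks reached from 84 bp before the canonical start to 449 bp after it in siControl and from 94 bp before to 430 bp after it in siAATF. They covered the whole of exon 1, the first coding base and 325 and 306 bp of intron 1, so most of their length was inside the gene. The best match to the core in either ATP5F1A peak had 3 mismatches. ATP5F1A has 7 distinct coding starts spread over 6039 bp, and a second siControl peak at the most distal of them also spanned the start of HAUS1, a subunit of the augmin complex on the opposite strand, 51 bp away. That second peak was weak, at rank 12.6 by fold enrichment and 6.89 by −log10 q. Its −log10 q was 2.00, where the lowest in the siControl list was 1.03. No siAATF peak overlapped it, and the share of such weak siControl peaks without an overlap is not given here.

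ATP5F1B showed the largest difference in width. Its siControl peak was 944 bp wide, at chr12:57039010-57039953, and its siAATF peak was 389 bp wide, at chr12:57039555-57039943. The upstream edges were close, 185 and 175 bp before the start, whereas the downstream edges were 758 and 213 bp after it. The siControl peak therefore covered all 483 bp of intron 1 and 128 of the 183 bp of exon 2, and the siAATF peak 66 bp of intron 1 and no base of exon 2. The siAATF peak lay wholly within the siControl peak and covered 41.2% of it. Of the 5 head genes with a peak, ATP5F1B was the only one whose peaks did not overlap reciprocally by at least 50%, a criterion met by 94.2% of coding genes with a siControl promoter peak. The part of the siControl peak that was not in the siAATF peak held 2 matches to the core with 2 mismatches, between 436 and 466 bp after the start, and the best match in the siAATF peak had 3.

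**Figure D1:**
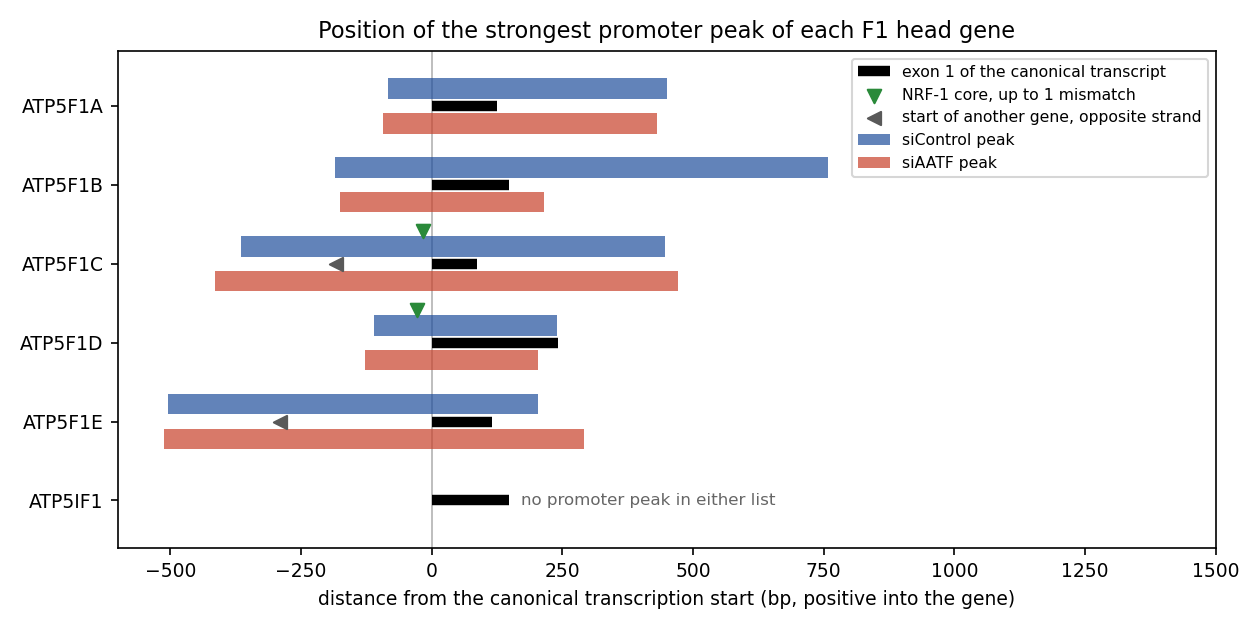
Extent of the strongest promoter peak of each head gene in siControl and siAATF, in bp from the canonical transcription start (0, positive into the gene), with exon 1 as a black bar, the NRF-1 core with up to 1 mismatch as a green triangle and the start of a gene on the opposite strand as a grey arrowhead. All 5 pairs of peaks span the start, the ATP5F1B peak ends at 758 bp in siControl and at 213 bp in siAATF, and ATP5IF1 has no peak.

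The central stalk held both the strongest and the weakest fold enrichments of the group. ATP5F1C, the gene of the gamma subunit that turns inside the head, had a siControl peak of fold enrichment 9.54 and −log10 q 48.7, at rank 95.5 by fold enrichment and 84.7 by −log10 q. Its siAATF peak had a fold enrichment of 8.46 and a −log10 q of 40.6, at ranks 91.2 and 83.3. Its −log10 q was the highest of the head genes in each list. The peaks, at chr10:7829775-7830586 and chr10:7829726-7830611, spanned the exact core, which lay 58 and 46 bp from their midpoints. They also spanned the start of KIN, a DNA- and RNA-binding protein gene on the opposite strand, 184 bp from that of ATP5F1C, so the peak cannot be assigned to one of the 2 genes. A coding start of another gene was spanned by the strongest siControl promoter peak of 21.9% of coding genes with one, and by that of ATP5F1C alone among the head genes.

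ATP5F1E, the gene of the small epsilon subunit, had a siControl peak at chr20:57607187-57607895 of fold enrichment 9.57 and −log10 q 28.7, at rank 95.7 by fold enrichment and 75.0 by −log10 q. Its siAATF peak, at chr20:57607100-57607902, had a fold enrichment of 7.60 and a −log10 q of 23.8, at ranks 80.4 and 72.9. The change was −15.3 points on the first scale and −2.06 points on the second, so its size rests on the measure that ranks the peaks. Ranked over promoter peaks alone, it was −20.3 points. Both peaks reached further upstream than those of the other head genes, to 505 and 512 bp before the start, and spanned the start of a long non-coding RNA gene (ENSG00000289837) 291 bp away on the opposite strand. With 3 mismatches at best, the ATP5F1E peaks were no nearer to the core than those of ATP5F1A.

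ATP5F1D, the gene of the delta subunit, had a fold enrichment of 2.45 in siControl and 2.44 in siAATF, at ranks 0.550 and 0.509, close to the bottom of each list. Ranked among the strongest promoter peaks of coding genes alone, it stood at 0.124 and 0.125. Its −log10 q was 7.91 and 7.80, however, at ranks 44.4 and 45.6, above that of ATP5F1B. The peaks were narrow, at 350 bp (chr19:1241639-1241988) and 332 bp (chr19:1241622-1241953), and lay within 128 bp upstream of the start and exon 1, of which they covered 239 and 204 of 241 bp. They held the core with 1 mismatch printed above. The peaks of ATP5F1D and ATP5F1C were the only ones of the head genes with a core of up to 1 mismatch, in either list.

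**Figure D2:**
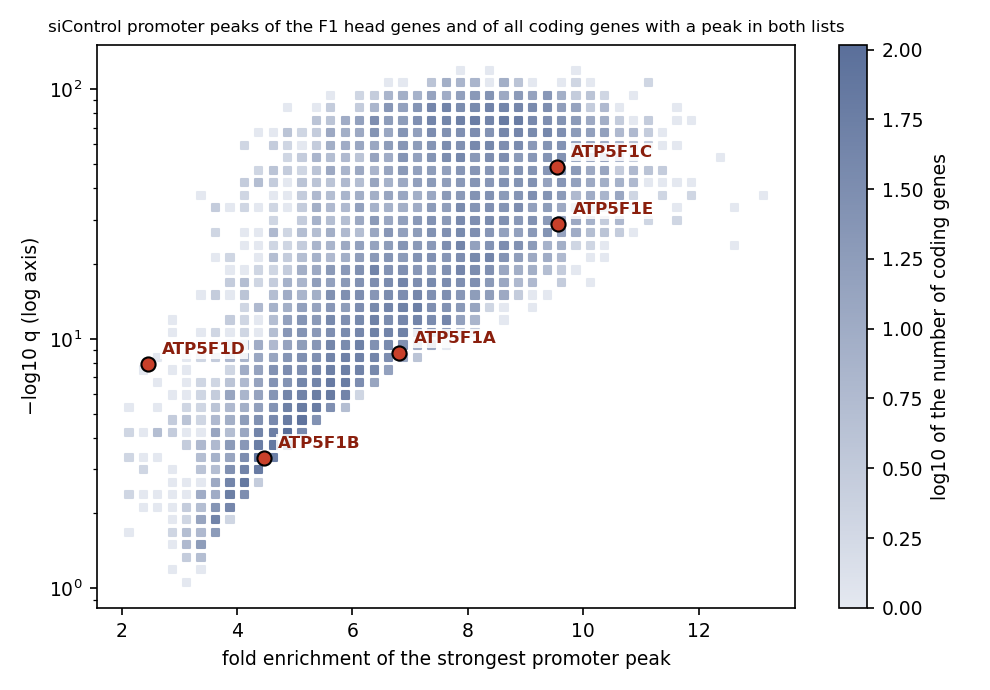
Fold enrichment (x axis) against −log10 q (y axis, log scale) of the strongest siControl promoter peak, with squares shaded by the log10 of the number of coding genes and the 5 head genes as red points. ATP5F1C and ATP5F1E lie at fold enrichments of 9.54 and 9.57 and ATP5F1D lies at 2.45 with a −log10 q of 7.91.

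A far more significant peak lay just outside the ATP5F1D promoter. It was at chr19:1239830-1240680 in siControl and at chr19:1239845-1240698 in siAATF, 65 and 47 bp beyond the 1 kb limit. Its −log10 q was 85.5 and 72.8, at ranks 97.9 and 96.8, and its fold enrichment was 6.51 and 5.94, at ranks 60.1 and 55.9. No annotated transcript start fell inside it. It held 1 match to the core with 1 mismatch (T6C, counted as above), at positions −1386 to −1377 from the canonical start, shown here with its surroundings in capitals for the match (chr19:1240339-1240398, plus strand).

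ATP5F1D upstream: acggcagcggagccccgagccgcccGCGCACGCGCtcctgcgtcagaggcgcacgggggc

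ATP5IF1 had no promoter peak in either list. The nearest peaks were 2.83 kb (siControl) and 2.68 kb (siAATF) before its canonical start, and spanned the start of DNAJC8, a co-chaperone gene. These peaks were strong, with a fold enrichment of 9.57 and 8.24 and ranks of 95.7 and 88.7. On the other side, the next peaks were 11.1 and 11.0 kb after the start, beyond the end of the gene, at ranks 37.6 and 26.1. A window of 2 kb on either side of the start did not give ATP5IF1 a peak. A peak list names only regions past the caller's threshold, so occupancy below it was not detectable here.

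**Figure D3:**
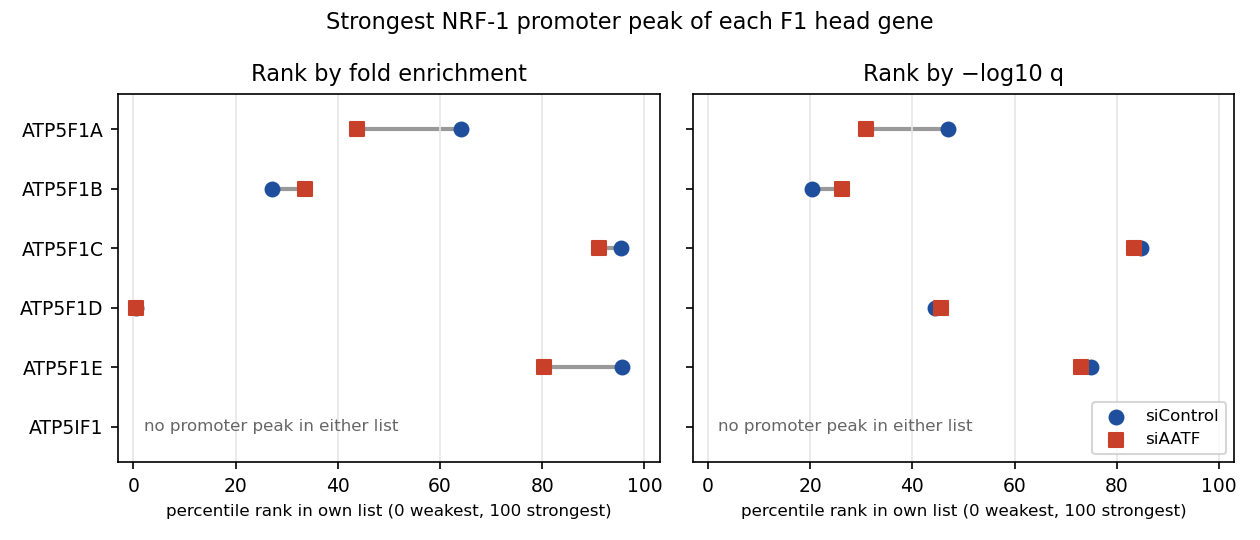
Percentile rank of the strongest promoter peak of each head gene in its own list (x axis, 0 weakest to 100 strongest), by fold enrichment on the left and by −log10 q on the right, with siControl as blue circles and siAATF as red squares. The largest gap is that of ATP5F1A on both scales (64.2 to 43.8 and 47.0 to 30.9), and the gap of ATP5F1E, 95.7 to 80.4 by fold enrichment, narrows to 75.0 to 72.9 by −log10 q.

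Between the lists, 4 of the 5 head genes with a peak were lower in rank by fold enrichment in siAATF and 1 was higher, with a median change of −4.33 points. A lower rank was seen for 48.9% of all genes with a peak in both lists (5755 lower and 6019 higher). Among 11774 coding genes with a promoter peak in both lists the median change was 0.156 points, and the median size of a change in either direction was 5.12 points. By −log10 q, 3 head genes were lower and 2 higher, with a median of −1.43 points against 0.467 for all, of which 44.5% were lower (5234 lower and 6540 higher). The change of ATP5F1D, −0.0402 points by fold enrichment, was 1.12 points on that scale. A fall of more than 20 points was seen for ATP5F1A alone of the 5, and for 2.90% of all genes with a peak in both lists. A rise of more than 20 points was seen for none of the 5 and for 3.65% of all.

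**Figure D4:**
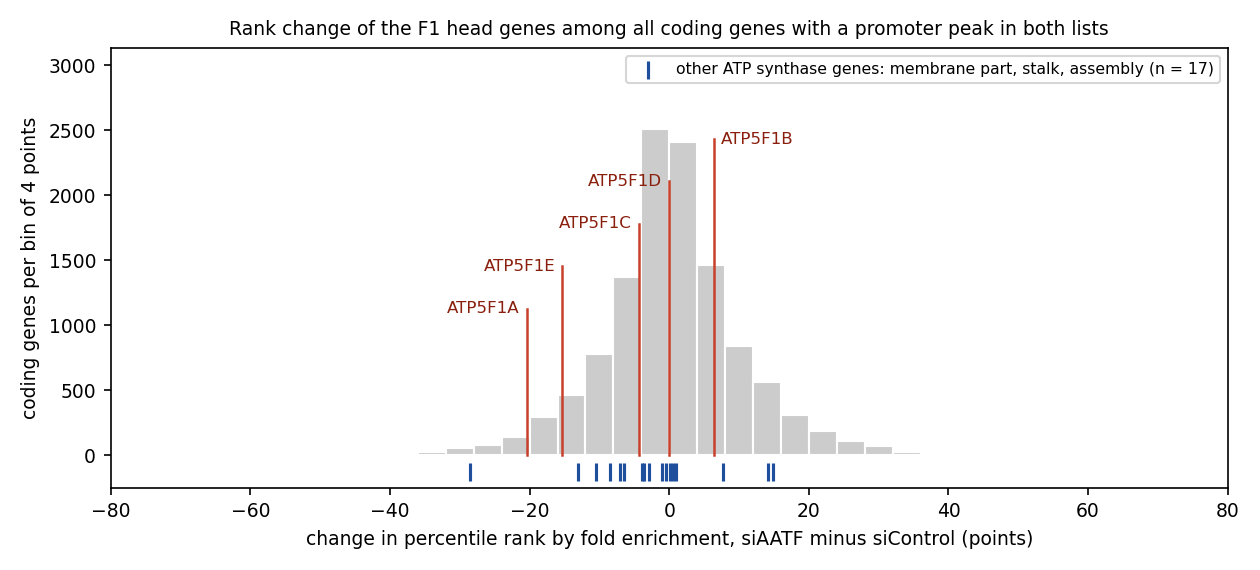
Change in percentile rank by fold enrichment from siControl to siAATF (x axis, points) for all coding genes with a promoter peak in both lists, as the number of genes per bin of 4 points (grey bars). Red lines mark the 5 head genes, from −20.4 points for ATP5F1A to 6.38 points for ATP5F1B, and blue ticks mark the 13 genes of the membrane part and stalk and the 4 assembly factors.

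A stricter −log10 q of at least 5 was met at the promoters of 4 head genes in siControl, ATP5F1A, ATP5F1C, ATP5F1D and ATP5F1E, and of 3 in siAATF, where ATP5F1A was no longer among them. Of all coding genes, 51.5% met it in siControl and 51.5% in siAATF. The head peaks were then searched for the core. An exact core was in the strongest promoter peak of 1 of 5 head genes in each list, against 3.89% of coding genes with such a peak in siControl and 3.96% in siAATF. With up to 1 mismatch it was in 2 of 5, against 23.9% and 24.0%. With up to 2 mismatches it was in 3 of 5 in siControl and 2 of 5 in siAATF, against 67.3% and 67.2%, the difference being the narrower siAATF peak of ATP5F1B.

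Other nuclear genes of the enzyme were set beside the head. Of 13 genes of the membrane part and stalk, all 13 had a promoter peak in both lists, and all 13 met the −log10 q of 5 in both. Over all coding genes, 61.1% (siControl) and 60.7% (siAATF) had a promoter peak, and 51.5% met that limit in each list. The median rank of the 13 genes by fold enrichment was 80.1 in siControl and 73.6 in siAATF. That of the 5 head genes was 64.2 and 43.8, which in each list is the rank of ATP5F1A. For all coding genes with a peak in both lists it was 64.5 and 65.2. By −log10 q the medians were 73.6 and 74.6 for the 13 genes, 47.0 and 45.6 for the head and 66.0 and 66.8 for all. The median change of the 13 genes by fold enrichment was −3.68 points, with 9 genes lower and 4 higher, where 48.9% of all coding genes were lower. Ranked by −log10 q, 6 of the 13 were lower and 7 higher, with a median of 0.257 points, where 44.5% of all were lower. By fold enrichment they ran in siControl from ATP5MK (rank 44.2), a small accessory subunit, to ATP5MJ (rank 96.6), another one. In siAATF they ran from ATP5PD (46.7), a subunit of the peripheral stalk, to ATP5MJ (92.9). ATP5F1B and ATP5F1D ranked below this range in both lists and ATP5F1A below it in siAATF, and ATP5F1C and ATP5F1E ranked within it in both. By −log10 q the 13 genes ran from 33.8 to 97.7 in siControl and from 45.3 to 98.1 in siAATF. On that scale ATP5F1D (44.4 and 45.6) ranked within the range in both lists. ATP5F1B was still below it in both and ATP5F1A in siAATF. A core with up to 1 mismatch was in the strongest promoter peak of 7 of the 13 in each list. For all coding genes with such a peak it was 23.9% in siControl and 24.0% in siAATF. These differences between the gene lists were not tested, since the genes were chosen with results of these data known.

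The assembly factors of the enzyme also had promoter peaks in both lists, 4 of 4, against 61.1% (siControl) and 60.7% (siAATF) of all coding genes. ATPAF1, the chaperone of the beta subunit, ranked 91.7 in siControl and 90.6 in siAATF, far above the beta gene itself. ATPAF2, the chaperone of the alpha subunit, ranked 61.8 and 62.9, close to ATP5F1A in siControl and above it in siAATF. FMC1, which acts in the assembly of the head, ranked 94.3 and 94.4, and TMEM70, which acts in the assembly of the membrane part, ranked 88.3 and 77.8. By −log10 q, all 4 were high, from 87.8 for ATPAF1 to 99.5 for TMEM70 in siControl and from 89.2 for ATPAF1 to 98.6 for TMEM70 in siAATF.

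Likeness was measured as the distance between pairs of ranks by fold enrichment over the 2 lists, within the genes of the membrane part, the stalk and the assembly factors. The nearest gene to ATP5F1C was ATP5MC3, a gene of the proton-carrying c ring, at 1.07 points (ranks 94.9 and 92.1). The nearest to ATP5F1E was ATP5PO, a gene of the peripheral stalk, at 3.06 points (92.8 and 79.7). By −log10 q, ATP5PO ranked 97.7 and 95.6, far from ATP5F1E (75.0 and 72.9). ATP5MC3, at 84.2 and 82.5, was close to ATP5F1C (84.7 and 83.3) on that scale too. ATP5PD was nearest to each of ATP5F1A, ATP5F1B and ATP5F1D, but at 17.2, 24.1 and 65.7 points. These distances were far larger than those of ATP5F1C and ATP5F1E. On the −log10 q scale ATP5PD stood at 73.6 and 74.6, above ATP5F1A (47.0 and 30.9), ATP5F1B (20.4 and 26.2) and ATP5F1D (44.4 and 45.6).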

How the data were processed

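NRF-1 ChIPmentation libraries were made from U251 cells and read from both ends. The methods of the study name Bowtie2 for alignment to hg19 and MACS2, run in an ATAC-seq workflow at its defaults, for broad peaks. No control library was named, and whether duplicates were pooled was not stated. Such workflows can offset reads by a few bases to allow for the transposase, and whether this was done was not stated. The deposited fold enrichment is a ratio to the local background, and the authors' MACS2 run also gave the deposited −log10 p and −log10 q. The deposited score is 10 times the −log10 q without its decimals and was not used. Positions were deposited in bp and are given 1-based.

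Python 3.11.15, numpy 2.4.6, pandas 2.3.3 and scipy 1.17.1 were used with the GRCh37 assembly and GENCODE release 44 lifted to it. No peak on the autosomes or sex chromosomes extended past the chromosome's end in that assembly. Ranks were computed over all peaks of a list, and the promoter peak of highest fold enrichment represented a gene. Scripts were tested on simulated data. The members and gene lists were chosen with earlier results of these data known. The genes named were the 6 head genes, genes starting inside their peaks, the assembly factors, the extremes of the membrane and stalk list, and the nearest gene in rank. DNAJC8, CBARP, MIDN and HAUS1 were named after their values were seen. Alternatives were a −log10 q of at least 5, promoters of 500 bp and 2 kb, the canonical start alone, the 10000 peaks of highest fold enrichment, reciprocal overlap of at least 50%, ranks by −log10 q or over promoter peaks, the promoter peak of highest −log10 q, and other limits on the core.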

Additional observations from a re-analysis of the deposited data

How the results depend on the processing

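No paired analysis was possible because each condition had a single list. Of 56 values under other settings, 34 stayed within a set limit, 20 moved and 2 changed sign. The limit was 1.5 times for counts. For rank changes it was a 95% interval that treats each rank as a binomial share of its list, which is a tolerance and not a replicate error. It ran from −21.4 to −19.4 points for ATP5F1A, 5.43 to 7.32 for ATP5F1B, −4.84 to −3.82 for ATP5F1C (also used for the median), −0.194 to 0.113 for ATP5F1D and −15.9 to −14.6 for ATP5F1E. For values that moved, the cause was not tested. With −log10 q of at least 5, which removes weak peaks, 3 head genes had a promoter peak in siAATF and 3 a shared one, and the median rank change was −6.59 points over the 3 left. Among the 10000 peaks of highest fold enrichment, 3 had a promoter peak in siControl, 2 in siAATF and 2 a shared one. The share of all coding genes at that cut is not given here, so the lower counts do not set the head genes apart. The median change was −1.43 points by −log10 q and −5.85 points over promoter peaks alone. With an exact core, 1 head gene held it in siControl and 1 in siAATF. The change of ATP5F1D turned from −0.0402 points to 1.12 by −log10 q and to 0.0558 with the stricter threshold. With promoters of 2 kb, an alternative for ranks chosen after seeing the data, the upstream peak represented ATP5F1D and its change was −4.19 points. The fall of ATP5F1A passed 20 points by fold enrichment, over all peaks and over promoter peaks (−23.9), but not by −log10 q (−16.0). That of ATP5F1E passed it over promoter peaks (−20.3) and with the stricter threshold (−23.0) only. The unknown depth limits what a weaker peak, or none, can show.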

Other observations

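The annotation holds 15 pseudogenes of the head genes. None of the 15 had a peak within 1 kb in siControl, and none in siAATF. The share of all pseudogenes with a peak is not given here, so this count does not set the 15 apart. How well reads were placed at these copies was not tested, and the lack of a called peak does not show a lack of occupancy. Around ATP5F1D, peaks at 2 neighbouring gene starts also combined a low rank by fold enrichment with a higher one by −log10 q. At CBARP the fold enrichment was 2.18 in siControl and 2.28 in siAATF, at ranks 0.244 and 0.298, and the −log10 q was 5.09 and 6.29, at ranks 32.6 and 39.6. At MIDN the siControl peak had a fold enrichment of 3.30, at rank 3.98, and a −log10 q of 14.2, at rank 59.4. The overlapping siAATF peak no longer spanned the MIDN start and had a fold enrichment of 2.99, at rank 1.83, and a −log10 q of 11.4, at rank 55.8. These neighbours were chosen after their values were seen, and the cause was not tested.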
